A study of Mus musculus with 55 samples.

Results

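The genes described here are 34 genes of the cardiac contractile apparatus and of the calcium cycle that drives it, measured in mouse heart. They were chosen by symbol, as a roster of sarcomere and calcium handling genes, with earlier results of these data known. Each was read from 1 probe set annotated to that gene alone, the probe set with the highest mean where there were several. A probe set is the group of short probes by which the array reads a transcript. Of the 34 genes, 33 had such a probe set, among 18193 genes in all. Xirp2, a Z-disc repeat protein, had none and is not described further. All 33 were bright enough to be tested, among 8237 tested genes. They were ordered by role into 8 genes of the thin filament, 6 of the thick filament and M-band, 11 of the Z-disc and its intermediate filaments and 8 of calcium handling.

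The hearts came from 55 male mice, 1 array each. PPARα-/- mice (KO, 30 arrays) were of the substrain 129S4/SvJae and wild type mice (WT, 25 arrays) of 129S1/SvImJ, so genotype and substrain cannot be told apart in any KO and WT comparison below. Mice of both genotypes had been on a run-in diet in which olive oil stood in for corn oil, were fasted for 4 h, received 400 µL by gavage and were sampled 6 h later. The gavage was a synthetic triglyceride (triolein, trilinolein, trilinolenin or tridocosahexaenoin), the PPARα agonist Wy14643 at 10 mg/mL, or a control, for which the sample labels say none and the treatment protocol carboxymethyl cellulose (CMC). Each triglyceride carries a single kind of fatty acid. Those of triolein, trilinolein and trilinolenin have 18 carbons and 1, 2 and 3 double bonds, and that of tridocosahexaenoin has 22 carbons and 6 double bonds. Each KO group held 5 arrays. The WT groups held 4 arrays for triolein, 5 for trilinolein, 4 for trilinolenin, 5 for tridocosahexaenoin, 4 for Wy14643 and 3 for control. The labels give the age as 9 to 12 weeks and the protocol as 2 to 6 months.

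All levels are log2 signals as deposited, and all differences are differences of log2 signals, with their standard error (SE). Nothing in the labels says more about the replicates than that they are separate hearts. Each p-value sets a difference of group means against the spread between hearts within groups, pooled over the 12 groups in the main fit. The arrays were alike, with medians of 2.55 to 2.61 and correlations between arrays of 0.988 to 0.996. Ppara itself was lower in KO hearts on each of its 3 probe sets, by -0.73, -1.29 and -0.71 among control arrays (limma, adjusted p = 1.33e-04, 3.22e-05 and 0.00302). Its highest probe set lay at 6.93 to 7.61 in KO hearts and 7.38 to 8.59 in WT hearts, so signal remained on KO arrays. The heart label was checked on the roster itself, in which ventricular Myl2 averaged 13.93 and cardiac Tnnt2 14.22. Each array reads RNA of whole heart tissue, in which fewer cells of a type and less RNA per cell cannot be told apart.

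In a heart muscle cell, thin filaments of actin, tropomyosin and troponin slide along thick filaments of myosin and its binding protein C, and titin spans from the Z-disc to the M-band as a spring. Each beat starts with calcium entering near junctions, held by junctophilin, between the surface membrane and the sarcoplasmic reticulum. That calcium opens ryanodine receptors, calcium stored on calsequestrin is released, and the pump SERCA, restrained by phospholamban, takes it back. PPARα is a nuclear receptor bound and activated by fatty acids, known in heart for driving the genes of fatty acid uptake and oxidation.

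Most roster genes gave a bright signal. The mean signal was over 12 for 20 of the 33 genes, against 170 of 8237 tested genes. In the thin filament, cardiac actin Actc1 averaged 13.85, troponin C (Tnnc1) 13.18, the inhibitory subunit Tnni3 13.53, tropomyosin Tpm1 13.44 and the filament elongation protein Lmod2 12.12. In the thick filament and M-band, the light chain Myl3 averaged 14.25, myosin-binding protein C (Mybpc3) 12.47, titin (Ttn) 13.52 and the M-band protein Myom2 13.17. Levels of different genes come from different probes, so these values do not rank the genes. Among Z-disc genes the means ran up to 12.75 for Myoz2 and down to 8.69 for Xirp1. Among calcium genes, the pump Atp2a2 averaged 13.84, phospholamban (Pln) 13.55, the ryanodine receptor Ryr2 13.05, calsequestrin Casq2 11.42, junctophilin Jph2 8.89 and the sodium-calcium exchanger Slc8a1 6.90.

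The median residual SD within groups was 0.076 over the 33 genes and 0.167 over all tested genes. It was least in Tnnt2 (0.032) and greatest in Slc8a1 (0.25). The means of the 12 genotype and gavage groups spanned a median of 0.16 over the 33 genes and 0.34 over all tested genes. By role, the median span was 0.088 in the thin filament, 0.12 in the thick filament and M-band, 0.16 at the Z-disc and 0.26 in calcium handling. Actc1 had the least span, 0.048. Jph2 had the greatest of the roster, 0.73, with 9.30 as its highest group mean in KO control hearts and 8.57 as its lowest in WT hearts given trilinolenin.

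Upstream sequence was available for 27 of the 34 genes as windows of 250 bases ending at an annotated gene start (RefSeq, mouse build GRCm38.p6), 37 windows in all, against 27025 genes overall. Each window was searched on both strands for AGGTCA, the core element bound by nuclear receptors such as PPARα, for the TATA box TATAAA, for CATTCC, the core of the sites bound by TEAD factors, and, by name, for the MEF2 motif and the CArG box bound by serum response factor. The MEF2 motif can hold the same letters as the TATA box. The CArG box stood in the windows of 5 of the 27 genes (18.5%), namely Actc1, Ldb3, Myl3, Myom1 and Nebl, against 1.62% of all genes. The MEF2 motif stood in those of 6 (22.2%), namely Casq2, Mybpc3, Myoz2, Synpo2l, Ttn and Xirp2, against 3.42%. AGGTCA stood in those of 7 (25.9%), namely Actn2, Jph2, Myl2, Nebl, Pdlim5, Ryr2 and Xirp2, against 15.8%. CATTCC was found in 5 (18.5%, against 14.4%) and TATAAA in 3 (11.1%, against 14.3%). A match describes the letters in a window and is not evidence that a factor binds there.

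The 4 windows shown are printed 5′ to 3′ on the strand of the gene, with the matched motif in capitals. That of Jph2, the member with the greatest fall after triglycerides, lies at chr2:163397994-163398243 on the minus strand and holds AGGTCA on the opposite strand, read here as TGACCT. Those of Casq2 (chr3:102086165-102086414, plus strand) and Synpo2l (chr14:20668355-20668604, minus strand), also lower after triglycerides, hold the MEF2 motif. That of Actc1 (chr2:114052876-114053125, minus strand), the member with the least span, holds the CArG box. Jph2 and Synpo2l each have 2 annotated windows, of which the one shown is window 1.
Jph2: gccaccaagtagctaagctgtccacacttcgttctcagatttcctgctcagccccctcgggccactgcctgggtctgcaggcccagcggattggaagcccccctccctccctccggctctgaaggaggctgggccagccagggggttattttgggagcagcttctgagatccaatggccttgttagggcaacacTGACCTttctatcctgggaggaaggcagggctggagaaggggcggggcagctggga
Casq2: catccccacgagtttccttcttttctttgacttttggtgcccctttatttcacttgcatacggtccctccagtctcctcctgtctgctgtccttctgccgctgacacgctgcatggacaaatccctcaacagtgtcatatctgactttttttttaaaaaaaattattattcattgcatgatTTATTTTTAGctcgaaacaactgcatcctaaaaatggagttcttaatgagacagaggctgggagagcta
Synpo2l: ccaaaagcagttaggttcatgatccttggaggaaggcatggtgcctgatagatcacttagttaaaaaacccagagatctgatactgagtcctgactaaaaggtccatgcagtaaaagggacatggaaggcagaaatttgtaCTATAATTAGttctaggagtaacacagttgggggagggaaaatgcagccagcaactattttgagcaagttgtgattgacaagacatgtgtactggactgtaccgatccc
Actc1: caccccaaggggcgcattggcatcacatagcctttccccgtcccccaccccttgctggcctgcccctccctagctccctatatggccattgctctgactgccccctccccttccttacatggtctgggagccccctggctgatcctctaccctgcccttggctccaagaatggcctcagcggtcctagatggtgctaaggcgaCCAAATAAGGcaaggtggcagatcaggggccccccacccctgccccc

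The first comparison asked how the roster differed between KO and WT hearts, as the mean difference over the 6 gavages. By limma with Benjamini-Hochberg adjustment at 0.05, 12 of the 33 genes were called (36.4%), 11 higher and 1 lower in KO hearts, against a background of 39% of all tested genes. That share is near the background, of which 22.8% were higher and 16.1% lower. The differences were small, with a median of 0.031 against 0.016 over all tested genes, and 0 of the 33 passed 1.5-fold, against 2.57% of all tested genes. The gene with the greatest fold was Trdn, at 0.842 times its WT level in KO hearts.

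**Figure D1:**
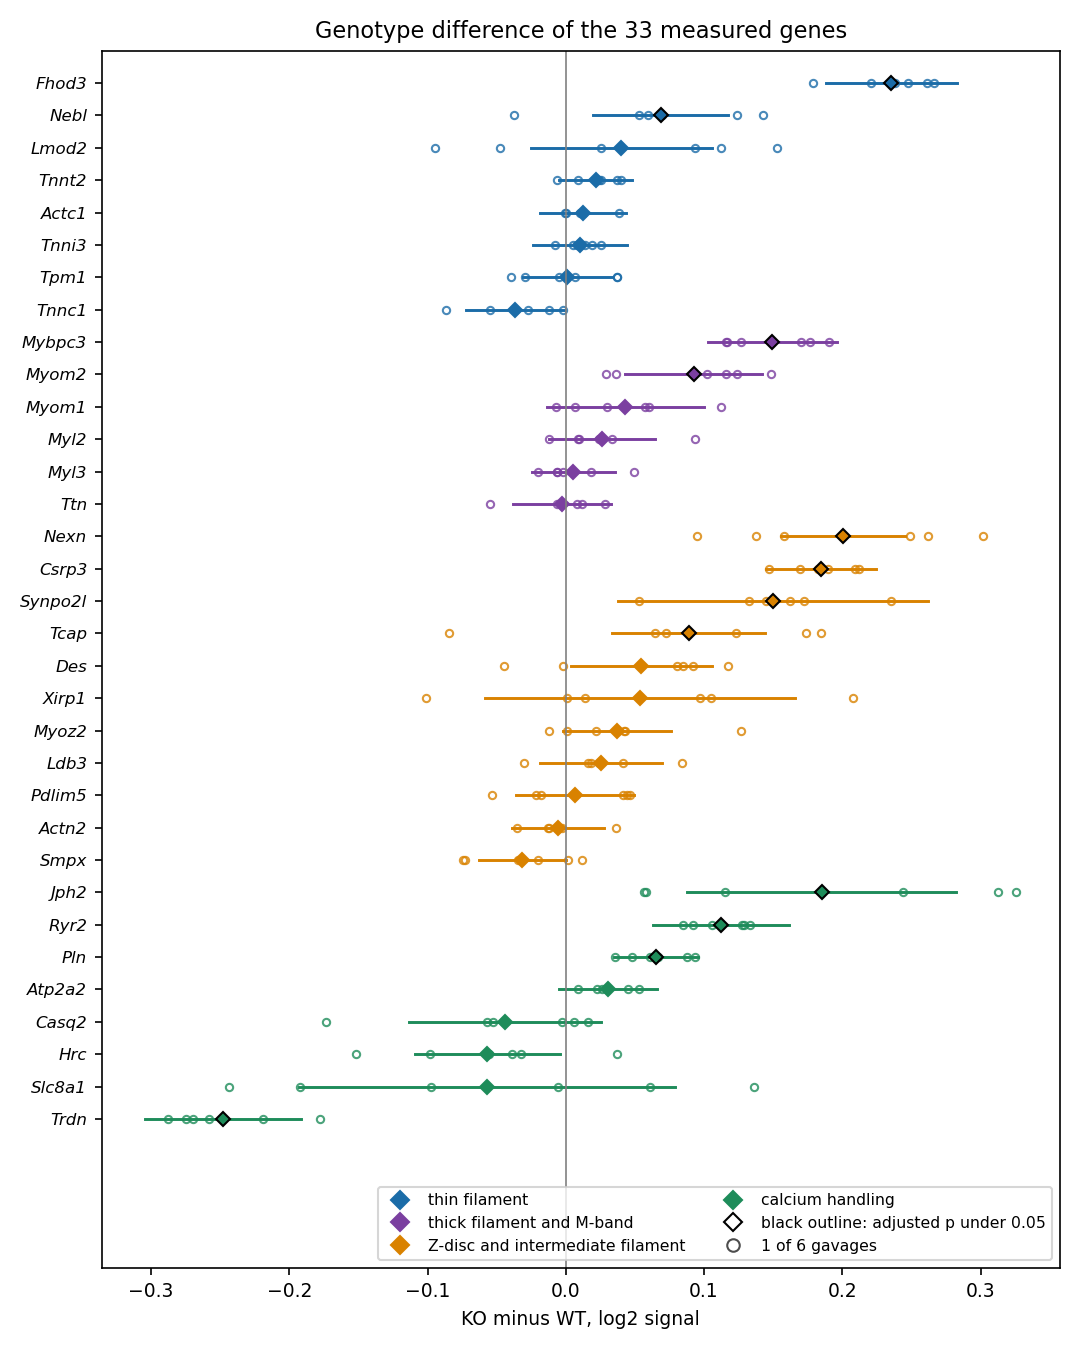
Log2 difference of KO minus WT hearts for each of the 33 roster genes, by role, as the mean over the 6 gavages (diamonds, outlined in black where called) with its 95% interval and the difference in each gavage as open circles. Fhod3, Nexn, Jph2 and Csrp3 lie farthest to the right with intervals clear of 0, Trdn lies far to the left, and most thin filament genes lie near 0.

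In the thin filament, 2 of 8 genes were called, both higher. Fhod3, a formin that assembles actin filaments in cardiac sarcomeres, had a lowest, median and highest signal of 10.57, 10.76 and 10.94 in KO hearts, against 10.32, 10.53 and 10.66 in WT hearts. Of the 30 KO arrays, 28 lay above every WT array, and the difference was 0.24 ± 0.02 (adjusted p = 1.49e-11). Nebl, nebulette, which ties actin to the Z-disc, was at 10.83, 11.06 and 11.20 in KO hearts, against 10.70, 10.93 and 11.14 in WT hearts. Its groups overlapped over most of their range, with a difference of 0.07 ± 0.02 (adjusted p = 0.0210), a call lost where a gene was read as the average of its probe sets. Actc1 was at 13.77, 13.85 and 13.93 in KO hearts, against 13.77, 13.84 and 13.96 in WT hearts, and did not pass (0.012 ± 0.015, adjusted p = 0.561). Neither did Tnnt2, which anchors troponin to tropomyosin (0.022 ± 0.013, adjusted p = 0.193), nor Tnni3 (0.011 ± 0.017, adjusted p = 0.655). As the average of its probe sets, however, Tnnt2 was called higher (0.086, adjusted p = 9.98e-04), and its dimmest probe set differed by 0.20 ± 0.06 (adjusted p = 0.00421).

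In the thick filament and M-band, 2 of 6 genes were called, both higher. Mybpc3 was at 12.43, 12.52 and 12.68 in KO hearts, against 12.20, 12.38 and 12.57 in WT hearts. All 30 KO arrays lay above the WT median and 12 above every WT array, with a difference of 0.15 ± 0.02 (adjusted p = 8.11e-07). Myom2 was at 13.00, 13.22 and 13.34 in KO hearts, against 12.91, 13.11 and 13.33 in WT hearts. Its difference was 0.09 ± 0.03 (adjusted p = 0.00217), with overlap over most of the range. Myl2 (0.026 ± 0.019, adjusted p = 0.285) and Ttn (-0.0026 ± 0.018, adjusted p = 0.923) did not pass.

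At the Z-disc, 4 of 11 genes were called, all higher. Nexn, the actin-binding protein nexilin, was at 11.21, 11.31 and 11.43 in KO hearts, against 10.82, 11.08 and 11.34 in WT hearts. All 30 KO arrays lay above the WT median, and the difference was 0.20 ± 0.02 (adjusted p = 3.14e-10). Csrp3, the muscle LIM protein, was at 12.65, 12.80 and 12.92 in KO hearts, against 12.50, 12.61 and 12.76 in WT hearts. Of the KO arrays, 22 lay above every WT array (0.18 ± 0.02, adjusted p = 9.19e-11). Synpo2l, an actin-associated Z-disc protein, was at 9.45, 10.01 and 10.53 in KO hearts, against 9.43, 9.85 and 10.13 in WT hearts (0.15 ± 0.06, adjusted p = 0.0286). Its call was lost without the array WT triolein replicate 3 or WT Wy14643 replicate 1. Tcap, the titin cap, was the fourth gene called here (0.09 ± 0.03, adjusted p = 0.00845).

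In calcium handling, 3 of 8 genes were called higher and 1 lower. Jph2 was at 8.56, 8.98 and 9.53 in KO hearts, against 8.43, 8.75 and 9.20 in WT hearts. Of the KO arrays, 24 lay above the WT median and 5 above every WT array, with a difference of 0.19 ± 0.05 (adjusted p = 0.00186). Ryr2, the release channel, was at 12.95, 13.09 and 13.26 in KO hearts, against 12.81, 12.99 and 13.18 in WT hearts (0.11 ± 0.02, adjusted p = 2.33e-04). Pln was at 13.50, 13.58 and 13.67 in KO hearts, against 13.44, 13.52 and 13.59 in WT hearts, a difference of 0.07 ± 0.01 (adjusted p = 4.66e-04). Of the KO arrays of Pln, 27 lay above the WT median. Trdn, triadin, which holds calsequestrin at the ryanodine receptor, moved the other way, at 10.65, 10.83 and 11.04 in KO hearts, against 10.88, 11.07 and 11.31 in WT hearts. Of the KO arrays, 23 lay below every WT array (-0.25 ± 0.03, adjusted p = 4.62e-10). Atp2a2 (0.031 ± 0.018, adjusted p = 0.166) and Casq2 (-0.044 ± 0.035, adjusted p = 0.328) did not pass, though Atp2a2 was called higher as the average of its probe sets (0.080, adjusted p = 0.0161). No gene of the roster had KO and WT arrays without overlap, which 0.996% of tested genes had.

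**Figure D2:**
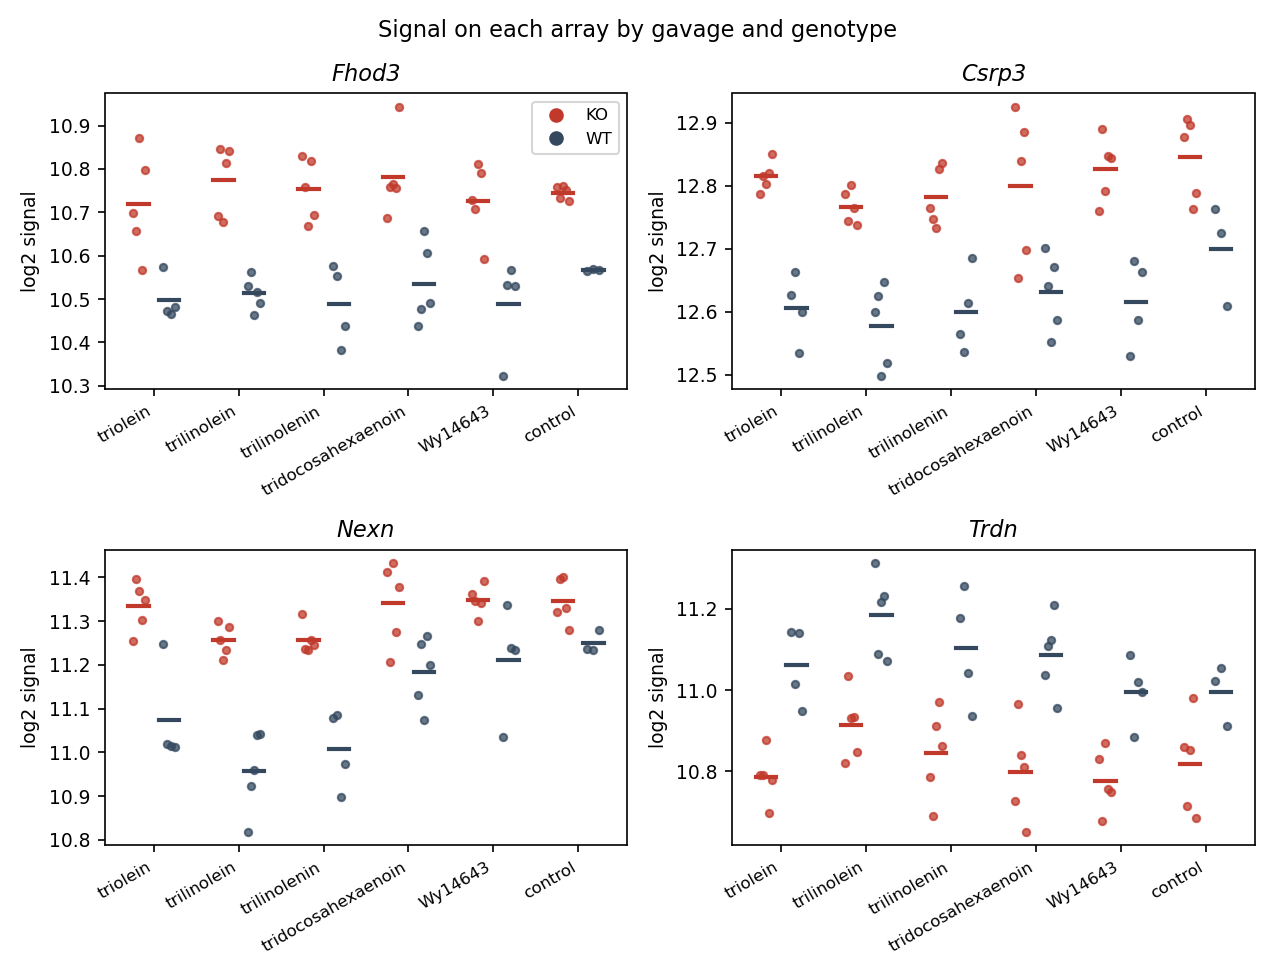
Log2 signal of every array (points) by gavage for Fhod3, Csrp3, Nexn and Trdn, KO left of WT in each gavage, with a bar at each group mean. For Fhod3, 28 of 30 KO points stand above every WT point, and for Trdn, 23 of 30 stand below every WT point.

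The 6 gavages give 6 comparisons of KO and WT hearts on separate arrays. The difference had the same sign in all 6 for 12 of the 33 genes (36.4%), against 33.4% of all tested genes. It was positive for Fhod3, Mybpc3, Myom2, Csrp3, Nexn, Synpo2l, Atp2a2, Pln, Ryr2 and Jph2, that is 10 genes against a background of 19.5%. It was negative for Tnnc1 and Trdn, 2 genes against a background of 13.9%. Fhod3 ranged over the 6 gavages between 0.18 and 0.27, Csrp3 between 0.15 and 0.21, and Trdn between -0.29 and -0.18. Nexn had a wider range, from 0.095 in the control gavage to 0.30 after trilinolein. Counted gene by gavage, 21 of 198 tests were called (10.6%, background 8.26%), in 5 genes, Fhod3, Csrp3, Nexn, Mybpc3 and Trdn. Of these genes, Fhod3, Csrp3, Trdn and Nexn were called in at least 4 gavages (12.1% of the roster, background 4.99%). With only the groups compared in each fit, 5 of the 198 tests were called.

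The calls were 4 of 33 after triolein (background 7.93%), 5 after trilinolein (9.63%), 4 after trilinolenin (9.54%), 4 after tridocosahexaenoin (9.57%) and 4 after Wy14643 (9.28%). Mybpc3 passed after trilinolein (0.19) and after Wy14643 (0.18). In the control gavage, with 5 KO and 3 WT arrays, limma called 0 of 33 genes (background 3.62%), with 4 at an unadjusted p under 0.05. With array weights the count was 1, Csrp3, where 443 of 8237 tested genes were called in place of 298. In the other alternatives tried for the control gavage the roster count was 0. Fhod3 there was at 10.76, 10.73, 10.76, 10.75 and 10.73 in KO control hearts, against 10.56, 10.57 and 10.57 in WT control hearts. Its groups did not overlap, yet the adjusted p was 0.125 (0.18 ± 0.06). Csrp3 was at 12.88, 12.91, 12.90, 12.76 and 12.79 in KO control hearts, against 12.76, 12.73 and 12.61 in WT control hearts, with the lowest KO array level with the highest WT array (0.15 ± 0.05, adjusted p = 0.137). Trdn was at 10.86, 10.72, 10.85, 10.98 and 10.69 in KO control hearts, against 11.02, 11.05 and 10.91 in WT control hearts, with overlap by 1 KO array (-0.18 ± 0.08, adjusted p = 0.253). Mybpc3 differed by 0.13 ± 0.06 (adjusted p = 0.370).

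Other probe sets of the same genes gave a second reading. The roster had 79 probe sets, 73 of them bright, of which 40 bright ones were not used above. Of these 40, 15 were called higher and 4 lower in KO hearts, against a background of 36.7% of bright probe sets called in either direction. The 6 probe sets of Trdn differed by -0.25, -0.16, -0.19, -0.14, -0.16 and -0.16, all but the last called (adjusted p = 0.143 for that one). The second probe set of Jph2 differed by 0.38 ± 0.09 (adjusted p = 9.73e-04). Atp2a2 was called higher on 3 of its 6 probe sets (0.04, 0.13 and 0.14) and not on the one with the highest signal.

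A separate list of 101 companion genes of the same apparatus, 74 of them tested, was also picked with earlier results of these data known. Of the 74 genes, 45.9% were called (19 higher and 15 lower in KO hearts), against the background of 39%. Among them, 4 passed 1.5-fold, which 2.57% of all tested genes did, and all 4 are genes whose products are best known from skeletal muscle. Acta1, skeletal actin, was at 8.72, 10.00 and 10.97 in KO hearts, against 11.28, 11.76 and 12.34 in WT hearts, with no overlap (-1.87 ± 0.11, adjusted p = 7.32e-19). Casq1, the skeletal calsequestrin, was at 6.15, 6.84 and 7.57 in KO hearts, against 4.62, 5.51 and 6.27 in WT hearts (1.32 ± 0.10, adjusted p = 1.16e-15). Its KO arrays lay almost wholly above its WT arrays. Tnnt1, the slow skeletal troponin T, was at 5.93, 6.27 and 6.63 in KO hearts, against 5.23, 5.66 and 6.06 in WT hearts (0.64 ± 0.05, adjusted p = 5.95e-16). Mybpc2, the fast skeletal myosin-binding protein C, was at 6.48, 7.26 and 7.58 in KO hearts, against 5.98, 6.53 and 7.05 in WT hearts (0.69 ± 0.08, adjusted p = 6.44e-10). The differences of the cardiac paralogs on the roster were 0.012 for Actc1, -0.044 for Casq2, 0.022 for Tnnt2 and 0.15 for Mybpc3. Whether a probe set also reads a close relative cannot be read from these files.

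**Figure D3:**
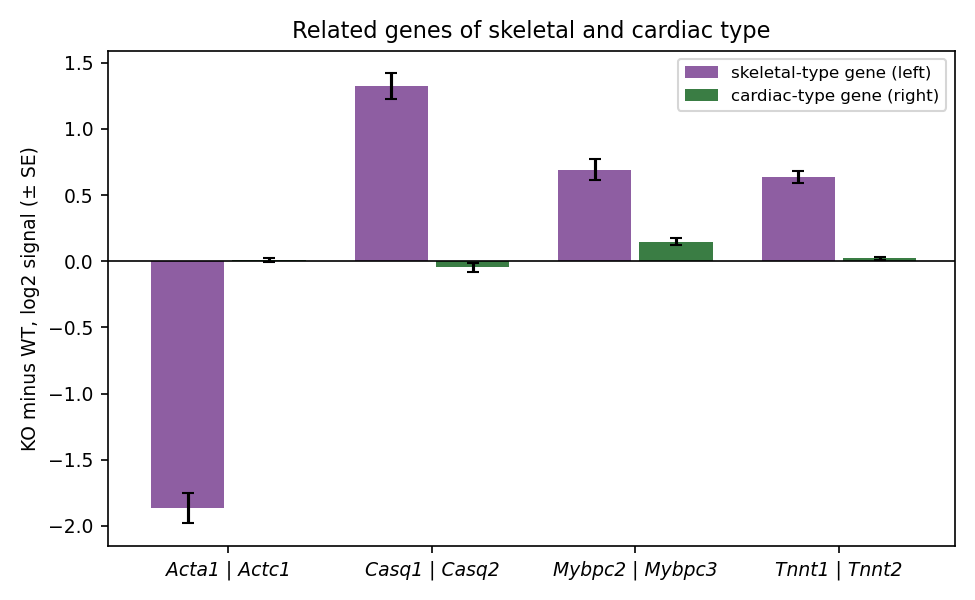
Log2 difference of KO minus WT hearts, as the mean over the 6 gavages, for 4 skeletal muscle genes (left bars) and their cardiac paralogs on the roster (right bars), with error bars of 1 SE. The bars of Acta1 (-1.87), Casq1 (1.32), Mybpc2 (0.69) and Tnnt1 (0.64) are longer than those of Actc1, Casq2, Mybpc3 and Tnnt2.

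The next rises were Myot, the Z-disc protein myotilin (0.34 ± 0.07), Ankrd1, a stretch-responsive titin partner (0.33 ± 0.06), and Cacna2d1, a calcium channel subunit (0.21). The next falls were Cavin4, a muscle caveola protein (-0.35 ± 0.04, adjusted p = 1.68e-09), the phosphodiesterase Pde3a (-0.33), the actin-associated Palld (-0.26), the LIM protein Fhl1 (-0.20) and the reticulum channel Tmem38b (-0.20). Tmem38b lost its call where a gene was read as the average of its probe sets. The myosin heavy chains Myh6 (0.019 ± 0.014, adjusted p = 0.274) and Myh7 (0.22 ± 0.12, adjusted p = 0.155) did not pass. Myh6 was called as the average of its probe sets (0.050, adjusted p = 0.0271), and Myh7 without the 3 arrays of lowest weight (0.32, adjusted p = 0.0204). In the control gavage alone 4 of the 74 companions were called (5.41%), against 3.62% of all tested genes. Of these companions, Acta1 differed by -1.79, Tnnt1 by 0.48 and Cacna2d1 by 0.33.

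Markers of other cells are given beside these values. Their counts stand against 39% of all tested genes called, 22.8% higher and 16.1% lower in KO hearts. The mean signal of 10 skeletal muscle markers was 3.02, 3.17 and 3.29 in KO hearts (lowest, median and highest), against 2.92, 3.04 and 3.30 in WT hearts. Of the 2 bright enough to be tested, Casq1 was called higher and the light chain Myl1 lower (-0.33). Of 5 tested macrophage markers 4 were called higher in KO hearts (median 0.31), with a mean signal of 6.33, 6.61 and 6.89 in KO hearts, against 6.10, 6.33 and 6.64 in WT hearts. Of 6 endothelial markers 2 were called higher, Kdr (0.66) and Fabp4 (0.45), and 2 lower, Pecam1 (-0.095) and Tek (-0.16), with a mean signal of 8.45, 8.60 and 8.86 in KO hearts, against 8.31, 8.47 and 8.73 in WT hearts. Of 5 fibroblast markers Pdgfra (-0.21) and Dcn (-0.070) were called lower, with a mean signal of 8.54, 8.81 and 9.15 in KO hearts, against 8.57, 8.83 and 9.30 in WT hearts. Of 5 smooth muscle markers Cnn1 (0.35) and Smtn (0.15) were called higher, with a mean signal of 6.36, 6.86 and 7.68 in KO hearts, against 6.24, 6.74 and 7.49 in WT hearts. Cidea, the tested 1 of 3 brown adipocyte markers, was lower in KO hearts without overlap (-0.77), and that list averaged 3.71, 4.18 and 4.72 in KO hearts, against 4.13, 4.44 and 4.93 in WT hearts. The mean signal of 5 atrial muscle markers was 7.07, 9.51 and 10.22 in KO hearts, against 7.46, 9.57 and 10.13 in WT hearts, and of the 4 tested 0 were called by limma, with Nppa at an unadjusted p under 0.05. Their part in the KO and WT differences of the roster was not tested.

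The second comparison asked what the roster did 6 h after a triglyceride, as the mean of the 4 triglycerides in both genotypes (38 arrays) minus control (8 arrays). Of the 33 genes, 5 were called, all lower (15.2%), against a background of 14.6% of tested genes, with 9.09% lower and 5.51% higher. The share called is near the background. The count was 10 where a gene was read as the average of its probe sets, with 1120 of 6674 genes called in all. It was 9 with array weights, with 1677 of 8237 genes called in all, against 1203 in the main fit. Lmod2, which was higher, was among the genes called in both of these, with the filter at 100, with the trended and robust prior and without the 3 arrays of lowest weight. The median difference was -0.028 over the 33 genes and -0.018 over all tested genes, and 27 of the 33 differences were negative. The share of negative differences over all tested genes is not given here, so that count is not read as a trait of the roster. No gene of the roster passed 1.5-fold, which 1.04% of tested genes did. By role, 2 of 8 calcium genes, 2 of 11 Z-disc genes, 1 of 8 thin filament genes and 0 of 6 thick filament and M-band genes were called lower.

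Jph2 fell most. It was at 8.43, 8.76 and 9.34 in hearts given a triglyceride, against 8.93, 9.22 and 9.53 in control hearts (lowest, median and highest). Of the 38 triglyceride arrays, 29 lay below every control array and 37 below the control median. The difference was -0.40 ± 0.07 (adjusted p = 1.12e-04), or 0.759 times the control level. Casq2, the calcium store of the reticulum, was at 11.13, 11.38 and 11.63 after triglycerides, against 11.34, 11.58 and 11.72 in control hearts. Of its triglyceride arrays, 36 lay below the control median (-0.19 ± 0.05, adjusted p = 0.00873). Nebl was at 10.70, 10.94 and 11.13 after triglycerides, against 11.03, 11.10 and 11.20 in control hearts, with 29 triglyceride arrays below every control array (-0.15 ± 0.03, adjusted p = 0.00259).

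At the Z-disc, Synpo2l was at 9.43, 9.85 and 10.53 after triglycerides, against 9.96, 10.09 and 10.33 in control hearts. The triglyceride arrays covered a wider range on both sides, and 26 lay below every control array (-0.24 ± 0.08, adjusted p = 0.0357). This call was lost without WT control replicate 1, 2 or 3 or KO control replicate 2. Nexn, the other Z-disc gene called, was at 10.82, 11.24 and 11.43 after triglycerides, against 11.23, 11.30 and 11.40 in control hearts (-0.12 ± 0.03, adjusted p = 0.00791), with 18 triglyceride arrays below every control array. These arrays mix KO and WT hearts, which differed by 0.20 for Nexn. By gavage and genotype, its difference ran from -0.29 in WT hearts given trilinolein to -0.0049 in KO hearts given tridocosahexaenoin.

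The index genes of the filaments gave differences near 0. Differences after triglycerides were 0.0015 for Actc1 (adjusted p = 0.978), -0.00077 for Tnnt2 (0.986), -0.037 for Tnni3 (0.350), -0.0043 for Myl2 (0.947) and -0.014 for Ttn (0.761), in limma. Mybpc3 (-0.075, adjusted p = 0.140) did not pass, except with array weights (-0.086, adjusted p = 0.0452), and among calcium genes neither did Atp2a2 (-0.028, adjusted p = 0.519), Pln (-0.027, adjusted p = 0.458) or Ryr2 (-0.054, adjusted p = 0.347). As the average of its probe sets, Atp2a2 was called lower (-0.22, adjusted p = 1.23e-04). The only gene with a positive difference over 0.1 was Lmod2, at 11.81, 12.19 and 12.36 after triglycerides, against 11.78, 12.01 and 12.13 in control hearts (0.13 ± 0.05, adjusted p = 0.0561), which did not pass here and did in the 5 alternatives named above.

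**Figure D4:**
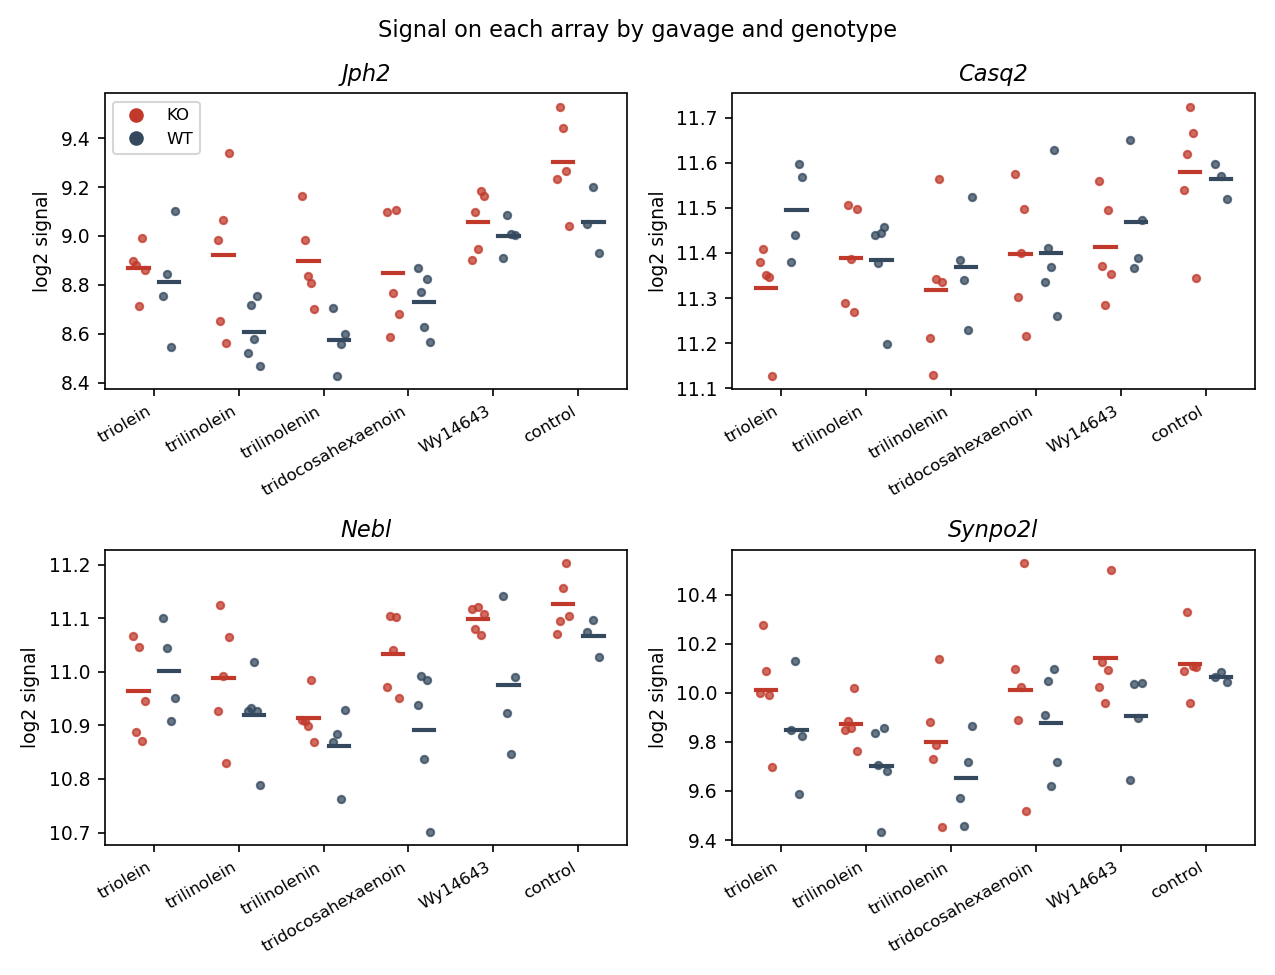
Log2 signal of every array (points) by gavage for Jph2, Casq2, Nebl and Synpo2l, KO left of WT in each gavage, with a bar at each group mean. For Jph2 and for Nebl, 29 of 38 triglyceride arrays lie under every control array, and the arrays of Synpo2l are spread most widely.

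Taken by genotype and gavage, Jph2 was at 8.90, 8.88, 8.71, 8.99 and 8.86 in KO hearts given triolein, against 9.23, 9.53, 9.44, 9.27 and 9.04 in KO control hearts. All 5 triolein arrays lay below all 5 control arrays. It was at 8.71, 8.43, 8.56 and 8.60 in WT hearts given trilinolenin, against 9.05, 9.20 and 8.93 in WT control hearts, again with no overlap. In KO hearts the differences from control were -0.43 for triolein (adjusted p = 0.0384), -0.38 for trilinolein (0.0385), -0.40 for trilinolenin (0.0120) and -0.46 for tridocosahexaenoin (0.0154). In WT hearts they were -0.25, -0.45, -0.49 and -0.33 in the same order, of which trilinolenin passed (SE 0.14, adjusted p = 0.0315). The 4 comparisons of a genotype share their control arrays, 5 in KO and 3 in WT. The KO triolein call was lost in 9 of 10 fits that left out an array of either group, trilinolein in 7 of 10, tridocosahexaenoin in 4 of 10, trilinolenin in 2 of 10, and the WT trilinolenin call in 6 of 7.

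In WT hearts, 3 of 165 tests of a gavage against control were called (1.82%, background 1.33%). The other 2 were both Nexn. It was at 10.82, 10.92, 10.96, 11.04 and 11.04 in WT hearts given trilinolein, and at 11.08, 11.08, 10.90 and 10.97 in those given trilinolenin, against 11.24, 11.23 and 11.28 in WT control hearts. All arrays of both gavages lay below all control arrays, with differences of -0.29 ± 0.06 (adjusted p = 0.00743) and -0.24 ± 0.06 (adjusted p = 0.0210). The trilinolein call was lost without WT control replicate 3 and the trilinolenin call in 5 of 7 such fits. The roster had 1 call after trilinolein (background 1.25%), 2 after trilinolenin (3.41%) and none after triolein (0.0728%) or tridocosahexaenoin (1.86%) in limma, and 15 of the 165 tests had an unadjusted p under 0.05. The 3 calls became 0 without WT control replicate 3, 1 without WT control replicate 1 or 2 or WT trilinolenin replicate 3 or 4, and 0 to 5 under other alternatives.

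In KO hearts, 9 of 165 tests were called (5.45%, background 4.21%), of which 1 came after triolein (background 1.15%), 2 after trilinolein (4.32%), 5 after trilinolenin (11.9%) and 1 after tridocosahexaenoin (3.54%). Beside Jph2, Lmod2 was higher. It was at 12.26, 12.11, 12.22, 12.30 and 12.28 in KO hearts given trilinolein and at 12.31, 12.26, 12.30, 12.23 and 12.26 in those given trilinolenin, against 12.07, 12.13, 11.98, 11.78 and 11.96 in KO control hearts. The trilinolenin arrays lay above all control arrays and 4 of 5 trilinolein arrays did so, with differences of 0.28 (adjusted p = 0.00858) and 0.25 ± 0.08 (adjusted p = 0.0465). The trilinolein call was lost in 8 of 10 fits that left out an array. The 9 calls became 3 without KO control replicate 3, 4 without KO control replicate 2 or 4, and 3 to 15 under other alternatives.

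After trilinolenin in KO hearts, 3 more genes were lower. Nebl was at 10.91, 10.91, 10.90, 10.98 and 10.87, against 11.07, 11.10, 11.16, 11.20 and 11.10 in KO control hearts, with no overlap (-0.21 ± 0.06, adjusted p = 0.0086). The Nebl call was lost where a gene was read as the average of its probe sets. Casq2 was at 11.21, 11.13, 11.34, 11.56 and 11.34, against 11.54, 11.62, 11.72, 11.67 and 11.34 in KO control hearts, with overlap (-0.26 ± 0.08, adjusted p = 0.0244, lost in 5 of 10 fits that left out an array). Smpx, a small protein of striated muscle, was at 12.18, 12.19, 12.27, 12.19 and 12.17, against 12.20, 12.27, 12.37, 12.38 and 12.34 in KO control hearts. Its groups overlapped (-0.11 ± 0.04, adjusted p = 0.0325, lost in 7 of 10).

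Wy14643 called 0 of the 33 genes in KO hearts (limma, 4 at an unadjusted p under 0.05, background 0.0728%) and 0 in WT hearts (0 at an unadjusted p under 0.05, background 0.0607%), and 0 in each alternative tried. Jph2 was at 8.90, 9.10, 8.95, 9.18 and 9.16 in KO hearts given Wy14643 and at 8.91, 9.08, 9.01 and 9.00 in WT hearts given Wy14643, overlapping the control arrays of both genotypes given above. Its difference from control was -0.24 in KO hearts, with a 95% interval of -0.47 to -0.019 (adjusted p = 0.464). In WT hearts it was -0.06, with an interval of -0.33 to 0.22. For the pump Atp2a2 the intervals were -0.060 to 0.10 in KO hearts and -0.11 to 0.091 in WT hearts. Over the 33 genes the differences ran from -0.24 to 0.17 in KO hearts and from -0.16 to 0.21 in WT hearts.

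Whether a gavage acted otherwise in KO than in WT hearts was tested as an interaction. Of 165 tests, limma called 0 (background 0%), with 2 at an unadjusted p under 0.05, and 0 in each alternative tried. Both were Nexn, for trilinolein (0.21 ± 0.08, unadjusted p = 0.0122) and for triolein (0.17 ± 0.08, unadjusted p = 0.0457, adjusted p = 0.987). Nexn was at 11.30, 11.26, 11.21, 11.23 and 11.29 in KO hearts given trilinolein, against 11.32, 11.40, 11.40, 11.33 and 11.28 in KO control hearts, while the WT trilinolein arrays given above lay further below their controls. A difference between the genotypes in response to a gavage was not shown for any roster gene.

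The 4 triglycerides differ in chain length and in the number of double bonds, and were compared in 6 pairs per genotype at the same volume and time, with p-values adjusted over all genes and pairs. In WT hearts 1 of 198 tests was called (0.505%, background 0.354%), and in KO hearts 0 of 198 (limma, 7 at an unadjusted p under 0.05, 1 with array weights, background 0.217%). The call was Nexn, at 11.13, 11.25, 11.07, 11.27 and 11.20 in WT hearts given tridocosahexaenoin, against 10.82, 10.92, 10.96, 11.04 and 11.04 in those given trilinolein. The groups did not overlap, and the difference was 0.23 ± 0.05, with an interval of 0.12 to 0.33 (adjusted p = 0.0344). It was lost in 6 of 10 fits that left out an array. For Jph2 no pair passed. Its interval for tridocosahexaenoin minus triolein was -0.25 to 0.20 in KO hearts and -0.32 to 0.16 in WT hearts, and for trilinolenin minus triolein -0.20 to 0.25 in KO hearts and -0.49 to 0.013 in WT hearts. The next smallest adjusted p in KO hearts was that of Tcap, a gene picked here after its value was seen, for trilinolein minus triolein (0.24 ± 0.06, adjusted p = 0.0922).

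The response to triglycerides differed between probe sets of the same gene. Of 29 roster probe sets with a mean signal over 12, 0 were called and the largest difference in size was 0.13. Of 44 bright ones at 12 or less, 13 were called, with Jph2 (-0.52) as the largest called difference in size. Over all probe sets, 7.88% were called above a signal of 12 and 16.9% between 8 and 12. The second range leaves out signals under 8, which some of the 44 roster sets have. Over all bright probe sets of any signal 13.6% were called. The median residual SD was 0.055 for the roster sets over 12 and 0.196 for the others. The highest value on any array was 14.87, and whether differences are compressed at signals near it was not tested.

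Atp2a2 shows the spread in signal. Its 6 probe sets averaged 13.84, 13.70, 11.32, 9.11, 8.39 and 5.07. Their differences after triglycerides were, in the same order, -0.03 (adjusted p = 0.541), -0.04 (0.296), -0.08 ± 0.02 (0.0234), -0.34 ± 0.05 (2.8e-05), -0.44 ± 0.10 (0.00114) and -0.38 ± 0.11 (0.0139). The 4 dimmer sets were called lower and the 2 brightest were not. Ldb3, the Z-disc protein cypher, differed by -0.04 (adjusted p = 0.503) at a signal of 11.88, by -0.20 ± 0.04 (3.11e-04) at 11.15 and by -0.23 ± 0.08 (0.0385) at 7.81. The second probe set of Jph2, at 7.11, was also lower (-0.52 ± 0.14, adjusted p = 0.00661), and so was that of Slc8a1, at 6.22 (-0.45 ± 0.13, adjusted p = 0.0120), whose brighter set did not pass (-0.22, adjusted p = 0.141). Of the 40 bright probe sets not used above, 8 were called lower and 0 higher, against a background of 13.6%. The files do not tell which transcript forms each set reads. Probe sets of Atp2a2, Ldb3 and Slc8a1 were singled out after their values were seen.

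**Figure D5:**
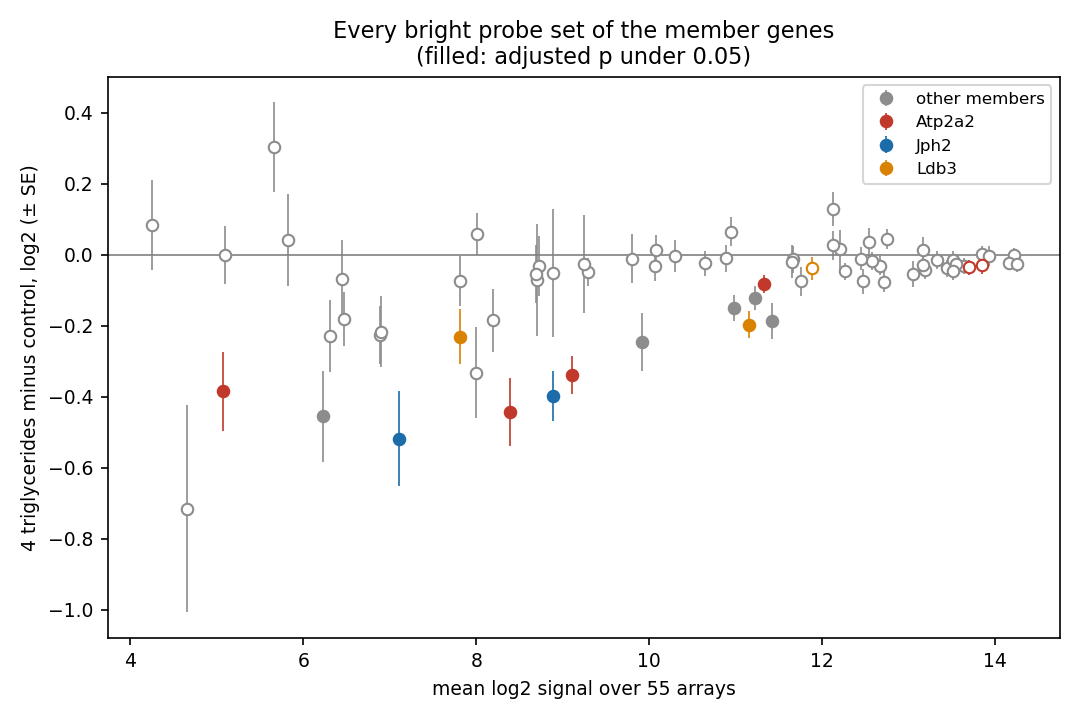
Difference of triglyceride minus control hearts against mean log2 signal for the 73 bright probe sets of the roster, with probe sets of Atp2a2, Jph2 and Ldb3 in colour, called ones filled and error bars of 1 SE. All 29 sets over a signal of 12 lie within 0.13 of 0, and the 13 called sets are at 12 or less.

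Of the 74 companion genes, 12 were called lower and 0 higher after triglycerides (16.2%), against 14.6% of tested genes called. Lmod3, a leiomodin of the thin filament, was at 8.61, 9.32 and 9.74 after triglycerides, against 9.75, 9.81 and 9.94 in control hearts. Its groups did not overlap, which held for 0.0243% of tested genes, and the difference was -0.50 ± 0.07 (adjusted p = 1.04e-05). Among genes of calcium control, 7 of 28 were lower, with Akap6, which anchors protein kinase A near the nucleus and reticulum (-0.31 ± 0.06, adjusted p = 3.03e-04), and the calmodulin kinase genes Camk2g (-0.24 ± 0.07, adjusted p = 0.0110) and Camk2a (-0.21 ± 0.07, adjusted p = 0.0492). Ankrd1 (-0.30 ± 0.09, adjusted p = 0.0126) and Cavin4 (-0.21 ± 0.06, adjusted p = 0.0178) were lower too. Myh6 (-0.029, adjusted p = 0.372) and Myh7 (-0.09, adjusted p = 0.780) did not pass. Camk2a lost its call in 31 of 46 fits that left out an array, and Camk2g and Cavin4 lost theirs without WT control replicate 2. Camk2a was also dim, with a mean of 4.04 in KO hearts and 4.04 in WT hearts, under the brightness cut of 4.32 on the log2 scale. It was tested because 3 or more arrays lay over that cut.

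Among the markers of other cells, the mean signal of 5 atrial muscle markers was 7.07, 9.66 and 10.22 after triglycerides, against 7.49, 8.68 and 9.89 in control hearts, and of the 4 tested 0 were called by limma (0 at an unadjusted p under 0.05, median difference 0.60). With the mean of the tested 4 as a covariate, an alternative added after the data were seen, 4 of the 5 roster genes were called lower and Synpo2l was not (-0.22). That fit called 990 of all 8237 tested genes, against 1203 without the covariate. Without the covariate, 14.6% of all tested genes were called, 9.09% lower and 5.51% higher, and the marker counts below are from that fit. Of 6 endothelial markers 2 were called lower, Kdr (-0.50) and Tie1 (-0.23), and Fabp4 higher (0.16), with a median difference of -0.17. Of 5 fibroblast markers the collagen Col3a1 was called lower (-0.59), with a median of -0.11, and of 5 macrophage markers Cd163 was called higher (0.48), with a median of 0.067. Of 5 smooth muscle, 2 skeletal muscle and 1 brown adipocyte markers tested, 0 were called by limma, with Smtn and Casq1 at an unadjusted p under 0.05. The mean signal after triglycerides was 8.31, 8.53 and 8.78 for endothelium, against 8.55, 8.67 and 8.86 in control hearts. It was 8.54, 8.79 and 9.30 for fibroblasts after triglycerides, against 8.88, 8.98 and 9.15 in control hearts, and 6.10, 6.49 and 6.89 for macrophages after triglycerides, against 6.28, 6.40 and 6.57 in control hearts. The part of these cells in the triglyceride differences was not tested.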

How the data were processed

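RNA of 55 mouse hearts was measured on Affymetrix mouse genome arrays, 1 per heart. The deposited values are log2 signals made with GCRMA 2.2.0, per the submitters' processing notes, and were used as deposited. Background correction and quantile normalization of this kind make arrays comparable and can compress differences of dim probe sets. Whether differences of the brightest probe sets are compressed as well was not tested. Of 45101 probe sets, 34945 were annotated to 1 gene, of which 34741 matched the gene table by Entrez identifier, and 932 to several, which were not used. Each of 18193 genes was represented by its brightest probe set, by mean over the 55 arrays. The tested genes (8237) had a linear signal over 20 in 3 or more arrays. The number of arrays, 3 to 5 a group, limits the precision.

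A model with 1 mean for each of 12 groups was fitted over all tested genes in R 4.3.3 with limma 3.58.1 (residual degrees of freedom 43, prior 3.25). Comparisons were contrasts of group means, and Benjamini-Hochberg adjustment ran across all 8237 genes (across genes and the 6 pairs for pairs of triglycerides). Calls are adjusted p-values below 0.05. Intervals are 95% intervals of the fit without adjustment. The code was tested on simulated data.

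The genes of the roster, the lists of companion genes and cell markers, the tests and the naming rule were picked with earlier results of these data known. The rule names 10 index genes (Actc1, Tnnt2, Tnni3, Myl2, Mybpc3, Ttn, Atp2a2, Pln, Ryr2 and Casq2) throughout, up to 8 called genes in each direction for KO against WT over the gavages, 5 in the control gavage, 4 for each gavage, for the pooled triglycerides and for each pair, and 3 for interactions. Of the companion genes it names Myh6, Myh7 and the 6 largest called rises and falls. Genes named beyond it, and single probe sets, were named after their values were seen.

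As alternatives, the brightness filter was dropped or set at 100, a gene was read as the average of its probe sets or each bright probe set was tested as a feature, arrays were quantile normalized once more or weighted, the variance prior was made robust with a trend, the replicate number entered as a block, the fit held only the groups compared, and each array was left out in turn.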

Additional observations from a re-analysis of the deposited data

Results flagged for a closer look

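For 11 roster genes, the arrays of each group of 4 or 5 were checked for an array that stands apart by Dixon's criterion. Of 121 sets of a gene and a group, 9 held such an array, and chance gives about 1 in 20. Replicate 1 of WT triolein stood apart in both Fhod3 (10.57, the others 10.46 to 10.48) and Nexn (11.25, the others 11.01 to 11.02), high in each. Replicate 1 of WT Wy14643 stood apart in both Fhod3 (10.32, the others 10.53 to 10.57) and Lmod2 (11.97, the others 12.17 to 12.20), low in each. Lmod2 was also low in KO tridocosahexaenoin replicate 1 (11.81, the others 12.16 to 12.25), 1 of the 3 arrays given a weight under 0.5. Casq2 was low in KO triolein replicate 5 (11.13, the others 11.35 to 11.41) and Myom2 in KO triolein replicate 2 (13.1, the others 13.23 to 13.28). In KO hearts given trilinolenin, Nexn was high in replicate 1 (11.32, the others 11.23 to 11.26) and Smpx in replicate 3 (12.27, the others 12.17 to 12.19).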

How the results depend on the processing

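The 12 calls of KO against WT over the gavages became 11 to 13 with an array left out and 12 to 15 under the other alternatives, and the 21 calls within gavages 19 to 23 with an array left out and 5 with only the groups compared in the fit. The 15 came with quantile normalization again, which called 3293 of 8239 genes, against 3211 of 8237 in the main fit. In the control gavage array weights gave 1 call in place of 0, and 443 in place of 298 over all 8237 genes. Against control, the 3 WT calls became 1 with no filter, 5 with the mean of all probe sets, 5 with array weights, 0 with only the groups compared, and 0 to 3 with an array left out (0 without WT control replicate 3). The 9 KO calls became 4, 15 and 3 with no filter, the mean of probe sets and only the groups compared, and 3 to 9 with an array left out (3 without KO control replicate 3, 4 without KO control replicate 2 or 4). The 5 triglyceride calls became 10 with the mean of probe sets, 9 with array weights and 4 to 7 with an array left out. Over all genes the mean of probe sets called 1120 of 6674 and array weights 1677 of 8237, against 1203 of 8237. Between triglycerides, the WT call became 0 with no filter, 2 with the mean of probe sets, 0 with only the groups compared and 0 to 1 with an array left out, and KO calls became 1 with array weights. The fits with only the groups compared hold fewer arrays. The cause of these shifts was not tested. For gavages against control and pairs of triglycerides, calls over all genes under the alternatives are not given here.

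The labels' replicate numbers showed no pairing. Deviations from group means correlated between same-numbered arrays at -0.29 to 0.37 (median 0.00036, 281 pairs), and 10 of 55 arrays were closest to an array of their own number. With the replicate block the counts were 12 for KO against WT and 5 after triglycerides, and the block moved no count of calls by over 1.5 times. Without the 3 arrays of low weight and with the atrial covariate, both added after the data were seen, the KO against WT count was 12. Over all 8237 tested genes these fits called 3177 and 3227.

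Sign changes among the 10 index genes were of sizes near 0, in comparisons without a call. For KO against WT they were Actc1 -0.0042 and Tnni3 -0.0075 with quantile normalization again, and Ttn 0.0037 with array weights, 0.0043 with the replicate block, 0.0098 without the 3 arrays and -0.0079 to 0.0034 with an array left out. After triglycerides, quantile normalization again gave Tnnt2 0.020, Myl2 0.0034 and Ttn 0.00021, and array weights gave Actc1 -0.0028 and Tnnt2 0.0015. Tnnt2 was 0.0032 without the 3 arrays and 0.0021 with the atrial covariate. With an array left out, Actc1 ran from -0.011 to 0.013, Tnnt2 from -0.0029 to 0.0023 and Myl2 from -0.026 to 0.0092. Over 3473 refits of named genes, 3288 kept direction and call, 134 lost the call, 6 gained it and 45 changed sign.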
